A study of Homo sapiens with 6 samples.

Results

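The members of a set of 10 genes of the BMP and TGF-beta pathways were measured in Huh7 cells, a line of human hepatocellular carcinoma, 24 h after addition of carfilzomib or of its solvent DMSO. They were chosen by gene symbol, as rows of the deposited FPKM table (fragments scaled to gene length and library depth) named ID1, ID2, ID3, SMAD6, SMAD7, SMAD9, BAMBI, SKIL, TGFB1 or TGFBR2, and all 10 were among its 19021 rows. The study has 3 carfilzomib and 3 DMSO libraries, all from cells labelled wild type. Carfilzomib is an inhibitor of the proteasome, the protease complex that degrades ubiquitin-tagged proteins, and the labels and protocols used here state no dose. No label states that replicate libraries derive from separate cultures. The p-values therefore reflect spread among libraries, which may be technical.

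Ligands of the TGF-beta and BMP families bind pairs of receptor kinases at the cell surface, which phosphorylate SMAD proteins that then enter the nucleus with SMAD4. TGF-beta and activins act mainly through SMAD2 and SMAD3, and BMPs through SMAD1, SMAD5 and SMAD9. Cells answer by making inhibitors of the same pathway, among them SMAD6, SMAD7, BAMBI and SKIL, and BMP signals also raise the ID genes. In hepatocytes the BMP branch drives HAMP, the gene of the iron hormone hepcidin, together with ID1 and SMAD6. Several proteins of the pathway are removed by the proteasome, but the measurements here are of RNA.

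The members did not move in one direction. ID1, ID2, ID3, SMAD6 and BAMBI fell with carfilzomib, to between 0.166 and 0.642 of their DMSO mean. TGFB1 and SMAD7 rose, to 1.46 and 1.35 times their DMSO mean. SKIL and TGFBR2 did not pass the test, and SMAD9 was too low to enter it. The test was limma on log2(FPKM + 1), two-sided, over the 11153 genes whose mean reached 1 FPKM, with p-values adjusted by the Benjamini-Hochberg method and a threshold of 0.05. Of the 9 members tested, 5 were called lower and 2 higher, where 44.9% of all tested genes were called lower and 36.7% higher. Of these, 4 were lower by at least 1 on the log2 scale, against 7.84% of all tested genes, and 0 were higher by that much, against 5.28%. The median log2 difference was -0.63 over the 9 members and -0.07 over all tested genes. The members were chosen with earlier results of these data known, so these contrasts describe them and are not a test. The groups did not overlap in 7 of the 9 tested members, where 82.8% of all tested genes did not overlap.

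The read totals behind these values, worked out from the FPKM values themselves, were 38386581 to 39651170 per library. On the second principal component, which held 1.22% of the variance, DMSO replicate 1 was at 8.43 and the other DMSO libraries were at -3.69 and -4.72. Among the 10 members, ID1, SMAD7 and BAMBI were higher in it than in both other DMSO libraries, and SMAD6, SKIL and TGFBR2 were lower. This library held the top DMSO value of 3465 of the 11153 tested genes and the bottom DMSO value of 4667. DMSO replicate 2 lay below both others in 7 of the 10 members and in 3166 of the 11153 tested genes. DMSO replicate 3 lay above both others in 7 of the 10 members and in 3956 of the 11153. For each gene 1 of the 3 libraries is highest and 1 lowest, so these counts alone do not set a library apart. Without DMSO replicate 1 the log2 differences were -1.27 for ID1, 0.45 for SMAD7 and -1.52 for BAMBI, and all 3 kept their calls. The hepatocyte identity of the cells was visible in all libraries. With carfilzomib 8 of 8 hepatocyte markers, albumin and alpha-fetoprotein among them, fell, where 44.9% of all tested genes were called lower. The summed level of these markers was 4102 to 4239 FPKM with carfilzomib and 9670 to 9845 FPKM with DMSO. Its part in the results below was not tested. Of 7 markers of fibroblasts and stellate cells, only COL1A2 and LUM reached a mean of 1 FPKM and both fell, while DCN was at or under 0.0222 FPKM in every library. In the short lists for other cells, the endothelial genes VWF and CDH5 and the blood cell gene PTPRC stayed below 0.05 FPKM, PECAM1 and LYZ fell and CD68 rose. As these are bulk libraries, fewer cells that express a gene and less RNA per cell cannot be told apart.

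**Figure D1:**
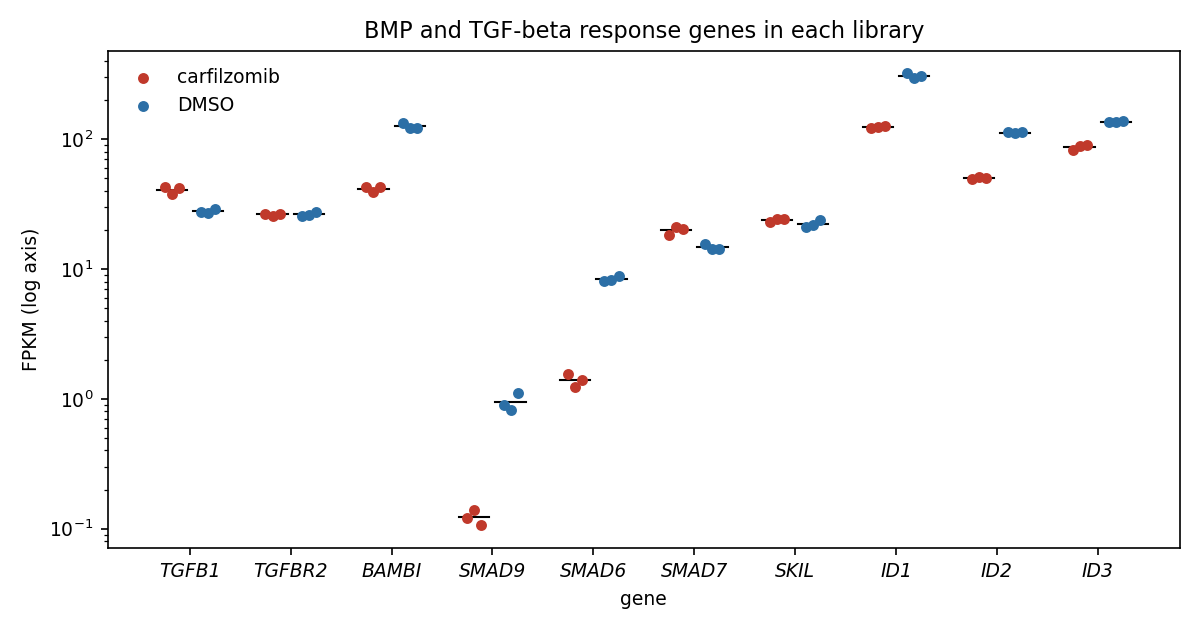
Level of each of the 10 members in each library, in FPKM on a log axis, with carfilzomib to the left of DMSO. Points are libraries (3 per group) and bars are group means. The groups do not overlap for 8 members, the untested SMAD9 among them, and they overlap for TGFBR2 and SKIL. Of all tested genes, 82.8% do not overlap.

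TGFB1 encodes the main TGF-beta ligand. It had 42.5, 38.2 and 42.0 FPKM in the carfilzomib libraries, against 27.7, 26.9 and 29.2 FPKM in the DMSO libraries. Every carfilzomib library lay above every DMSO library, and the log2 difference was 0.53 (SE 0.0476, adjusted p = 2.84e-06 by limma). TGFBR2 encodes the receptor kinase that binds this ligand first. It had 26.7, 25.8 and 26.4 FPKM with carfilzomib and 25.8, 25.9 and 27.7 FPKM with DMSO. The groups overlapped, and the log2 difference was -0.01 with a 95% interval of -0.09 to 0.08 (adjusted p = 0.899 by limma).

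BAMBI encodes a pseudoreceptor, shaped like a receptor of this family but without a kinase domain, that dampens TGF-beta and BMP signals. It had 42.8, 39.0 and 43.1 FPKM in carfilzomib libraries and 133, 121 and 122 FPKM in DMSO libraries. The lowest DMSO value was far above the highest carfilzomib value, and the log2 difference was -1.57 (SE 0.0489, adjusted p = 1.48e-09 by limma). In DMSO, BAMBI stood between ID3 and ID2 in the order of levels per gene length, with no overlap with either, and with carfilzomib its libraries overlapped with those of TGFB1.

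The inhibitory SMADs, SMAD6 and SMAD7, moved in opposite directions. SMAD6 acts mainly on BMP receptors, whereas SMAD7 acts on both branches and brings SMURF ubiquitin ligases to the receptors. SMAD6 had 1.56, 1.23 and 1.40 FPKM with carfilzomib and 8.15, 8.20 and 8.88 FPKM with DMSO. These rest on 520, 400 and 463 reads in carfilzomib libraries and 2715, 2753 and 2987 reads in DMSO libraries. All carfilzomib libraries were lower, and the log2 difference was -1.97 (SE 0.0661, adjusted p = 2.38e-09 by limma). Of the 11153 tested genes, SMAD6 ranked 84 from the largest fall. The size of the log2 difference depends on the pseudocount, with -2.51 at 0.1 and -1.07 at 5.

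SMAD7 had 18.4, 21.0 and 20.2 FPKM in the carfilzomib libraries and 15.5, 14.2 and 14.3 FPKM in the DMSO libraries. The groups did not overlap, and the log2 difference was 0.41 (SE 0.0545, adjusted p = 5.68e-05 by limma). The ratio of SMAD7 to SMAD6 in FPKM was 11.7, 17.1 and 14.5 with carfilzomib and 1.91, 1.74 and 1.61 with DMSO. The mean log2 ratio differed by 3.03, with p = 0.1 in an exact two-sided permutation test, the lowest value that 3 against 3 libraries can give. This ratio and the 2 ratios of ID genes below were chosen after the values were seen, and over these 3 ratios each adjusted p was 0.1 in the exact permutation test. The summed level of SMAD6 and SMAD7 was 21.2 ± 1.18 FPKM with carfilzomib and 23.1 ± 0.630 FPKM with DMSO (SD, n = 3 each). SMAD6 made up 6.62 ± 1.17% of this sum with carfilzomib and 36.4 ± 1.97% with DMSO.

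**Figure D2:**
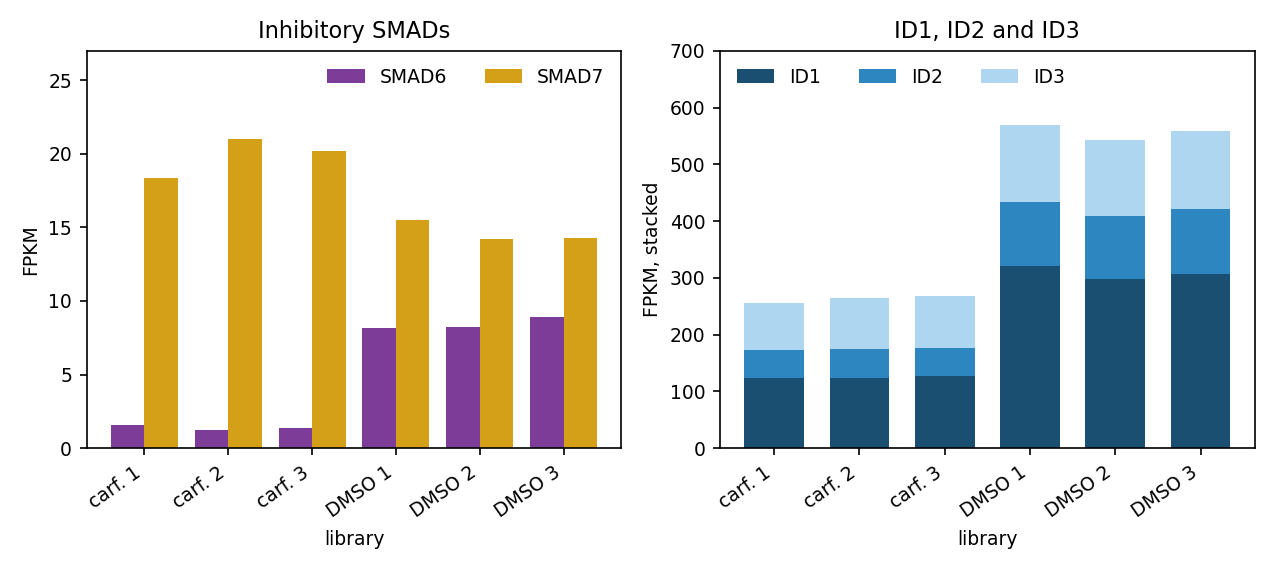
Left, levels of SMAD6 and SMAD7 in FPKM in each library. Right, levels of ID1, ID2 and ID3 in FPKM, stacked, in each library. In the carfilzomib libraries SMAD6 is at 1.23 to 1.56 FPKM with SMAD7 at 18.4 to 21.0 FPKM, and all 3 ID segments are shorter than in the DMSO libraries.

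SMAD9, a receptor-activated SMAD of the BMP branch, was the lowest member. It had 0.120, 0.140 and 0.106 FPKM in carfilzomib libraries and 0.888, 0.822 and 1.11 FPKM in DMSO libraries. The reads behind these values were 42, 48 and 37 with carfilzomib and 311, 290 and 391 with DMSO, a ratio of 0.130 with a 95% exact interval of 0.107 to 0.157 that covers counting error only. All carfilzomib libraries were below all DMSO libraries. Its mean of 0.531 FPKM kept it out of the test. In a fit without a filter on low values its log2 difference was -0.79 (adjusted p = 2.88e-05 by limma). SKIL encodes SnoN, a corepressor that binds SMADs and whose protein is degraded by the proteasome when TGF-beta signals. Its RNA was at 22.9, 24.2 and 24.2 FPKM with carfilzomib and 21.0, 21.8 and 24.0 FPKM with DMSO. The groups overlapped through DMSO replicate 3, and the log2 difference was 0.09 with a 95% interval of -0.02 to 0.21 (adjusted p = 0.108 by limma). SKIL passed the test without DMSO replicate 3, at a log2 difference of 0.15 (adjusted p = 0.0126 by limma), with median-of-ratios scaling, at 0.18 (adjusted p = 0.00686), and with limma-voom on reads recovered from the FPKM values, at 0.10 (adjusted p = 0.0354). Across the alternatives its adjusted p by limma lay between 0.00686 and 0.325.

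The ID genes encode small helix-loop-helix proteins without a DNA-binding region, which pair with E proteins and keep them off DNA. ID1 was the highest member in both groups. It had 123, 124 and 127 FPKM with carfilzomib and 322, 298 and 307 FPKM with DMSO. The groups were far apart, and ID1 fell by 1.30 on the log2 scale (SE 0.0331, adjusted p = 4.27e-10 by limma). ID2 had 49.5, 51.0 and 50.3 FPKM in the carfilzomib libraries and 113, 111 and 113 FPKM in the DMSO libraries. Its log2 difference was -1.15 (SE 0.0276, adjusted p = 3.27e-10 by limma), again with no overlap.

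ID3 had 82.5, 89.1 and 90.4 FPKM with carfilzomib and 135, 135 and 138 FPKM with DMSO. It fell in all carfilzomib libraries, by 0.63 on the log2 scale (SE 0.0369, adjusted p = 1.12e-07 by limma). The ratio of ID1 to ID3 in FPKM was 1.49, 1.39 and 1.40 with carfilzomib and 2.38, 2.21 and 2.22 with DMSO. The ratio of ID2 to ID3 was 0.601, 0.572 and 0.556 with carfilzomib and 0.833, 0.824 and 0.822 with DMSO. Both ratios were lower in every carfilzomib library than in any DMSO library, with p = 0.1 for each in the exact permutation test. The summed level of ID1, ID2, ID3 and the family's remaining gene ID4 was 263 ± 6.55 FPKM with carfilzomib and 564 ± 13.1 FPKM with DMSO. ID3 made up 33.1 ± 0.817% of that sum with carfilzomib and 24.1 ± 0.547% with DMSO, while the share of ID1 was 47.3 ± 0.651% and 54.8 ± 0.919% (SD, n = 3 each).

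**Figure D3:**
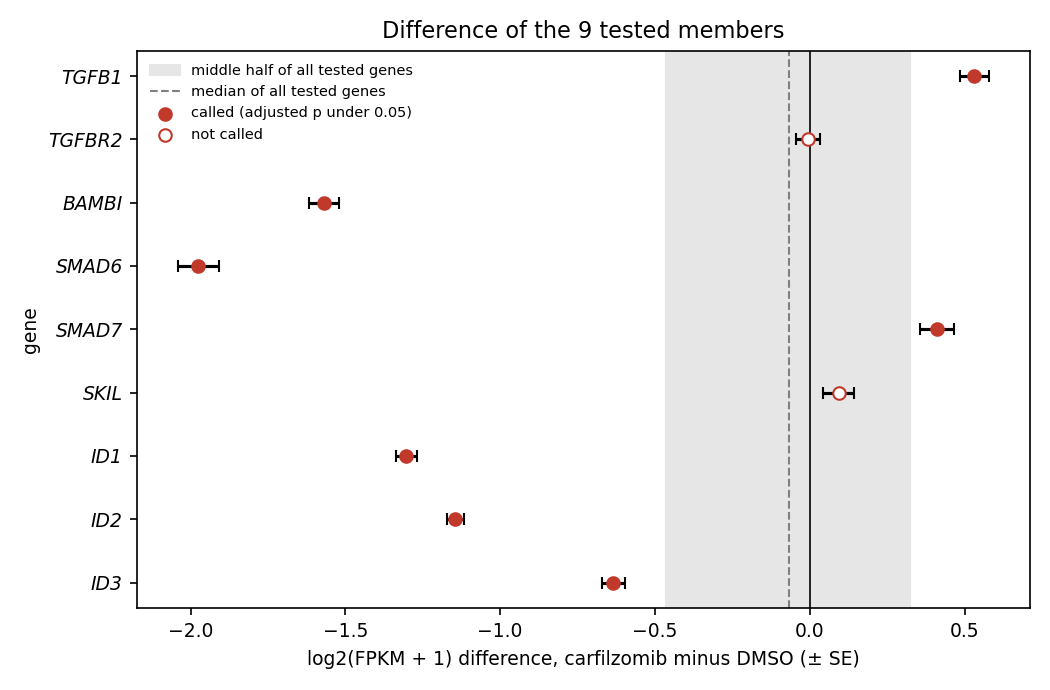
Difference in log2(FPKM + 1), carfilzomib minus DMSO, of the 9 tested members, with the SE from limma as bars. Filled points passed at an adjusted p under 0.05, the dashed line is the median of all 11153 tested genes (-0.07) and the shaded band runs from their lower quartile (-0.46) to their upper quartile (0.32). The 5 called falls lie left of the band and the 2 called rises right of it.

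The stretch of 250 bases before the start site is shown for the 5 members called lower, because these moved together. Sequences are from RefSeq (GRCh38.p14) and read 5′ to 3′ on the gene's strand, ending at the base before the start site. They are ID1 at chr20:31605039-31605288 (plus strand), ID2 at chr2:8681806-8682055 (plus), ID3 at chr1:23559502-23559751 (minus), SMAD6 at chr15:66701986-66702235 (plus) and BAMBI at chr10:28677271-28677520 (plus). Capitals mark CAGAC, the core that SMAD3 and SMAD4 bind, GGCGCC, a GC-rich SMAD1 and SMAD5 site, and GAANNTTC, the core of a heat shock element, each searched on both strands. No match of one motif overlapped a match of another.
ID1: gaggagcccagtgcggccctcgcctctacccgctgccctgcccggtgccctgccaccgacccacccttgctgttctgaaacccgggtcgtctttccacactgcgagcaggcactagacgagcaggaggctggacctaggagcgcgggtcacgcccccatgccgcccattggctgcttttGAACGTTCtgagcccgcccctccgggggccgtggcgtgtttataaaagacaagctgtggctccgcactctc
ID2: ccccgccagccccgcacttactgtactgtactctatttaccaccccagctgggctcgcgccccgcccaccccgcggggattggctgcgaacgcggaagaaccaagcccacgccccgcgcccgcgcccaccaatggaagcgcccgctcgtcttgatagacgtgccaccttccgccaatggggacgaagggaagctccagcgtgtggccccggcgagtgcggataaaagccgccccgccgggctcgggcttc
ID3: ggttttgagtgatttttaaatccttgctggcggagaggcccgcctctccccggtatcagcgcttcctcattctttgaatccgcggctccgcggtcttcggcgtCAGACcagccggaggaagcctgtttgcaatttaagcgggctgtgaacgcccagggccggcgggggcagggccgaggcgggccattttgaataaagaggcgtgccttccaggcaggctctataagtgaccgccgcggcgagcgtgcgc
SMAD6: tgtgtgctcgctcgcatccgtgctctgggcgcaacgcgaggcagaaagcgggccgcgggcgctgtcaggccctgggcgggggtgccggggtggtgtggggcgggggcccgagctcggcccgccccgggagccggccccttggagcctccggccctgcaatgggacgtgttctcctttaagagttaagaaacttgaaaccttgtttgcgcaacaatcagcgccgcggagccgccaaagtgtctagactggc
BAMBI: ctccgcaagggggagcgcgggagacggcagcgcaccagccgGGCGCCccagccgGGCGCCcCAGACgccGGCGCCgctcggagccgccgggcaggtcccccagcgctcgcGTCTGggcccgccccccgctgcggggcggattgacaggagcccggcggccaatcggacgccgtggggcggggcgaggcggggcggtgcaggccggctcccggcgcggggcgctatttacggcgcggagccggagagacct
BAMBI held 3 matches of GGCGCC, at positions -209, -196 and -181 from the start site, and 2 of CAGAC, at -189 and -140. ID3 held 1 CAGAC, at -147, and ID1 held 1 GAANNTTC, at -71. No match of the 3 motifs was found in these windows of ID2 and SMAD6. Of 35116 RefSeq promoters of the same length, 38.0% held CAGAC, 16.4% held GGCGCC and 5.78% held GAANNTTC. All 10 members matched a RefSeq promoter, 13 in all, since SMAD7 and TGFBR2 have several listed starts. Among the other 5 members, CAGAC was found in 2 of the 3 promoters of SMAD7 and in that of SKIL, and GGCGCC in that of SKIL, while no match was found in these windows of SMAD9, TGFB1 and TGFBR2. The share of G and C was 62.0% to 81.2% in the 5 promoters shown, 76.8% to 78.4% in those of TGFB1, SKIL and SMAD9 and 40.8% to 58.4% in those of SMAD7 and TGFBR2, where the median of all promoters was 58.0%.

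Other genes of the pathway were read from 9 lists, chosen with earlier results of these data known and holding 121 genes. Of these, 103 were in the table and 68 passed the filter on low values, 31 of them called higher and 28 lower. Over all tested genes 36.7% were called higher and 44.9% lower. In the fit without a filter on low values, 41 of the 103 (39.8%) were called higher and 37 (35.9%) lower. Of all 19021 genes in that fit, 26.5% were called higher and 32.2% lower. SMAD1 and SMAD5, which carry BMP signals with SMAD9, fell. SMAD1 had 4.70, 4.55 and 4.28 FPKM with carfilzomib and 8.59, 8.18 and 7.86 FPKM with DMSO, and SMAD5 averaged 11.6 ± 0.391 FPKM with carfilzomib and 16.7 ± 0.361 FPKM with DMSO (SD, n = 3 each). SMAD3, which carries TGF-beta signals, rose to 26.5 ± 0.398 FPKM, against 14.9 ± 0.141 FPKM with DMSO. In the list of SMAD1 to SMAD5, 4 of 5 fell and SMAD3 alone rose, with log2 differences from -0.74 to 0.79.

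Of the other target genes of SMAD1, SMAD5 and SMAD9, 3 were tested and all 3 fell, where 44.9% of all tested genes were called lower, and 3 more were below the filter. HAMP fell to 7.60, 5.65 and 8.44 FPKM with carfilzomib, against 55.7, 61.4 and 60.2 FPKM with DMSO. ID4 fell to 1.34, 1.20 and 1.62 FPKM, against 6.39, 6.64 and 6.62 FPKM with DMSO. Their log2 differences were -2.88 (adjusted p = 4.63e-09 by limma) and -1.66 (adjusted p = 1.14e-08 by limma). HEY1, a transcription factor below the filter and named after its values were seen, went the other way, with 112, 124 and 97 reads with carfilzomib and 51, 51 and 40 reads with DMSO (2.38 times as many per depth, exact 95% interval 1.95 to 2.92). Without the filter, 3 of the 6 genes in the table were called lower, HEY1 was called higher and the median log2 difference was -0.31.

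Of 15 tested other target genes of SMAD2 and SMAD3, 13 were called higher, 1 lower and 1 was not called. Over all tested genes 36.7% were called higher and 44.9% lower. Of the 13, IL11 and TAGLN, an actin-binding protein of smooth muscle, passed the filter on low values through their carfilzomib libraries alone. In the fit without the filter, 14 of the 18 genes in the table were called higher and 1 lower, against 26.5% and 32.2% of all 19021 genes. Their median log2 difference was 1.07, against -0.02 over all genes. Many of these target genes, IL11 included, are also known targets of other factors such as AP-1. IL11, a cytokine, had 1812, 1763 and 1753 reads with carfilzomib and 1, 0 and 4 reads with DMSO, so that carfilzomib held 1083 times as many per depth (exact 95% interval 464 to 3335). FN1, fibronectin, was the member of the list that fell, to 819 ± 45.8 FPKM, against 945 ± 11.9 FPKM with DMSO (log2 difference -0.21, adjusted p = 7.44e-04 by limma).

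**Figure D4:**
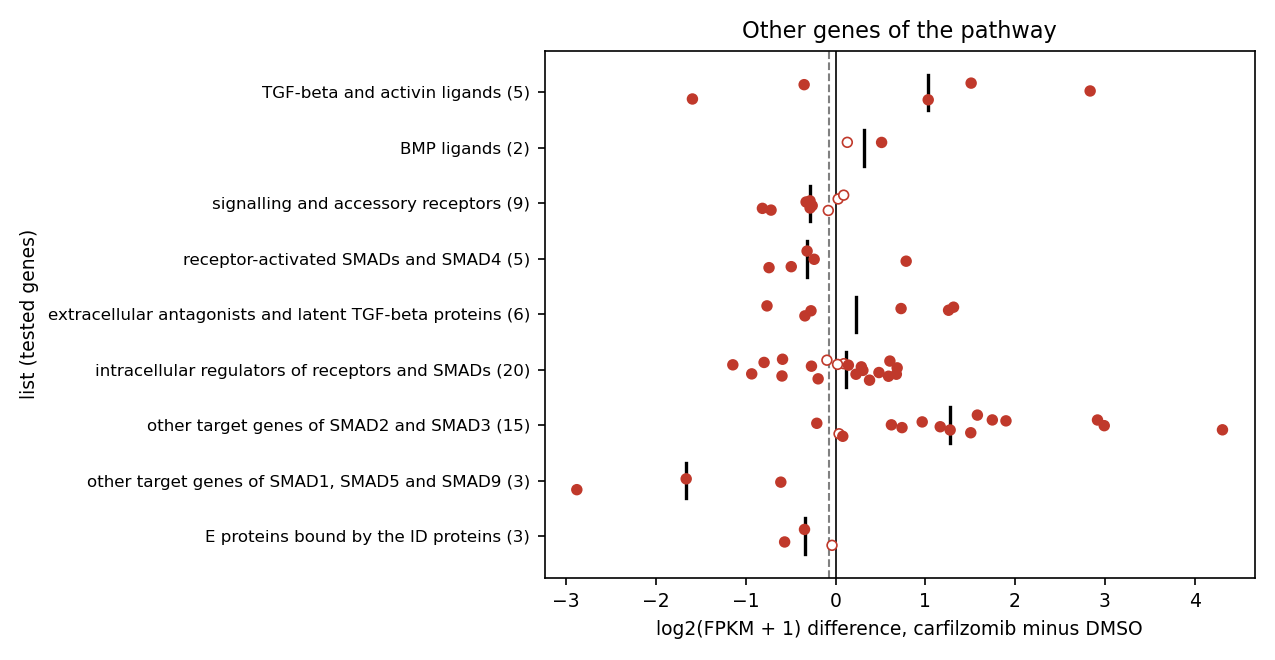
Difference in log2(FPKM + 1), carfilzomib minus DMSO, of the 68 tested pathway genes outside the members, by list, with the number tested in brackets. Filled points were called at an adjusted p under 0.05, black bars are list medians and the dashed line is the median of all tested genes. The 15 tested targets of SMAD2 and SMAD3 run from -0.21 to 4.31. The highest, IL11, passed the filter on low values through its carfilzomib libraries alone. The 3 tested targets of SMAD1, SMAD5 and SMAD9 run from -2.88 to -0.61. In that list 3 more genes, HEY1 among them, were below the filter and are not shown.

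Among TGF-beta and activin ligands, 3 of 5 tested rose and 2 fell, where 36.7% of all tested genes were called higher and 44.9% lower. Without the filter on low values, 4 of 10 were called higher and 3 lower, against 26.5% and 32.2% of all genes. TGFB2, a second TGF-beta ligand, had 33.1, 34.2 and 31.7 FPKM with carfilzomib and 3.43, 3.88 and 3.97 FPKM with DMSO. All carfilzomib libraries were higher, with a log2 difference of 2.84 (adjusted p = 7.58e-11 by limma). INHBA, a subunit of activin A, had 669, 605 and 585 reads with carfilzomib and 24, 9 and 5 reads with DMSO, which is 49.7 times as many per depth (exact 95% interval 36.1 to 70.5), and passed the filter through its carfilzomib libraries alone. INHBE, the subunit of the liver factor activin E, fell to 20.2 ± 2.90 FPKM, against 62.7 ± 2.04 FPKM with DMSO, and GDF11 fell by 0.35 on the log2 scale.

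Only 2 of 10 BMP ligands in the table passed the filter on low values. BMP2 rose to 91.7 ± 1.88 FPKM with carfilzomib, against 64.0 ± 0.373 FPKM with DMSO (log2 difference 0.51, adjusted p = 7.16e-08 by limma). BMP4 had 5.44, 6.17 and 5.73 FPKM with carfilzomib and 4.78, 5.26 and 5.53 FPKM with DMSO and was not called. Its log2 difference was 0.13 (adjusted p = 0.0767 by limma). It was called higher with quantile normalization, at 0.25 (adjusted p = 0.00294), with median-of-ratios scaling, at 0.21 (adjusted p = 0.0108), and without carfilzomib replicate 1 or DMSO replicate 3, at 0.17 in each (adjusted p = 0.0491 and 0.0445), and its adjusted p by limma lay between 0.00294 and 0.246 over all settings. Of the 8 ligands below the filter, BMP6 was called higher without it, and GDF7, BMP8A and AMH were called lower. These 4 are named after their values were seen. Without the filter 26.5% of all genes were called higher and 32.2% lower. BMP6, a ligand that regulates hepcidin in liver, had 71, 82 and 88 reads with carfilzomib and 3, 1 and 4 reads with DMSO, which is 30.6 times as many per depth (exact 95% interval 15.3 to 71.7). GDF7 had 61, 51 and 42 reads with carfilzomib and 171, 128 and 137 reads with DMSO, a ratio per depth of 0.359, and the ratio of BMP8A was 0.549. AMH had 29, 22 and 10 reads with carfilzomib and 43, 30 and 46 reads with DMSO. Its ratio was 0.521 (exact 95% interval 0.376 to 0.715).

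Of 9 receptor genes tested besides TGFBR2, 6 fell and none (0) rose, where 44.9% of all tested genes were called lower, and 3 were not called. Of those 3, ACVR1 was called higher with median-of-ratios scaling, with quantile normalization and without carfilzomib replicate 2, and TGFBR1 with quantile normalization. Among the 6 that fell, ACVR1C passed the filter on low values through its DMSO libraries alone. In the fit without that filter, 9 of 14 receptor genes were called lower and 1 higher, against 32.2% and 26.5% of all genes. The 1 called higher was BMPR1B, named after its values were seen (log2 difference 0.30, adjusted p = 0.00428 by limma). ACVR1B, a type I receptor of activins, fell to 12.5 ± 0.759 FPKM, against 22.7 ± 0.583 FPKM with DMSO, and BMPR1A, a type I receptor of BMPs, to 3.72 ± 0.302 FPKM, against 6.76 ± 0.597 FPKM with DMSO (SD, n = 3 each). Extracellular antagonists and latent TGF-beta proteins were divided, with 3 higher and 3 lower of 6 tested, and 8 higher and 5 lower of 17 without the filter. FSTL3, which binds activins, rose to 36.7 ± 2.27 FPKM, against 14.1 ± 0.404 FPKM with DMSO, and FSTL1, a related glycoprotein, to 23.7 ± 0.788 FPKM, against 9.31 ± 0.0937 FPKM with DMSO. LTBP3, which holds latent TGF-beta, and TWSG1, which modulates BMPs outside the cell, fell by 0.76 and 0.34 on the log2 scale.

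Of 20 intracellular regulators, 10 rose, 7 fell and 3 were not called, so that 17 were called in all, near the 81.6% called over all tested genes. SMURF2, a ubiquitin ligase that works with SMAD7, rose to 3.90 ± 0.304 FPKM, against 2.05 ± 0.216 FPKM with DMSO. TGIF1 and TGIF2, related corepressors of SMADs, moved in opposite directions, with TGIF1 at 26.0 ± 0.322 FPKM with carfilzomib and 15.9 ± 0.614 FPKM with DMSO, and TGIF2 at 3.79 ± 0.0795 FPKM with carfilzomib and 8.15 ± 0.131 FPKM with DMSO. CTDSP1, a phosphatase that acts on SMADs, fell by 1.14 on the log2 scale. Of the 3 E proteins that pair with ID proteins, TCF4 and TCF12 fell, by 0.57 and 0.35, and TCF3 was not called.

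The tested genes outside the members whose values over the 6 libraries lay closest to those of TGFB1, the member with the largest rise, were LRP10, TP53BP1 and MRPS18A, at root mean square distances of 0.0133, 0.0271 and 0.0275 in log2(FPKM + 1) centred on the DMSO mean. Closest to SMAD6, the member with the largest fall, were SCARA3, MBL2 and SLC29A4, at distances of 0.0454, 0.0615 and 0.0666.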

How the data were processed

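Gene expression in Huh7 cells was measured by RNA sequencing of 3 carfilzomib and 3 DMSO libraries, made with a stranded mRNA kit per the labels' protocols. The authors deposited FPKM values, with a column for each library. DESeq2, HTSeq, HISAT2 and fastp are listed in the submitters' processing notes, with no role or order, beside R 3.2.0 and the mouse build GRCm39. Rows carry human symbols, so no coordinates were taken from the files. Whether counting used strand, which bears on ID2 and its antisense gene ID2-AS1, is not stated.

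The columns were matched to samples by title. Genes averaging 1 FPKM or more were tested with limma 3.58.1 in R 4.3.3 (lmFit and eBayes, with trend) on log2(FPKM + 1), which understates changes of low genes. The fit was tested on simulated data. For 19018 of 19021 rows (99.98%), ratios of FPKM between libraries gave back whole reads, at a relative tolerance of 1e-13. The 3 other rows are not members. Intervals of read ratios are exact and cover counting error only. The members and lists were chosen with earlier results of these data known. The rule for named genes takes every member, up to 2 called genes per direction of each list, and the 3 closest genes to the members with the largest rise and fall, except 1 gene that is not reported here. Alternatives were 2 other pseudocounts, 2 other filters, 2 scalings, no trend, the replicate block, limma-voom on reads and leaving out each library.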

Additional observations from a re-analysis of the deposited data

How the results depend on the processing

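The calls of ID1, ID2, ID3, BAMBI, SMAD7 and TGFB1 kept their direction and their side of the threshold in all 15 alternatives, and so did that of SMAD6 in the 14 that tested it, since a mean of at least 5 FPKM leaves it out. TGFBR2 was not called in any alternative, and its log2 difference changed sign with median-of-ratios scaling (0.0831), without carfilzomib replicate 2 (0.00754) and without DMSO replicate 3 (0.0268). Leaving out each library in turn, it ran from -0.0231 to 0.0268, and that of TGFBR1, likewise uncalled in those fits, from -0.00275 to 0.0684. The 25 other pathway genes taken by the rule for named genes kept direction and call in all alternatives that tested them. Leaving out each library in turn, 2 to 3 members were called higher and 5 in every case lower, 29 to 32 pathway genes were called higher and 28 to 30 lower, and over all genes 3951 to 3994 were called higher and 4831 to 4982 lower. With a mean of at least 5 FPKM, 3246 genes were called lower, against 5007, since fewer genes were tested. Libraries of the same number did not deviate together (Pearson r across genes of -0.0121, -0.00341 and 0.0126 for numbers 1 to 3). These correlations cannot tell whether libraries of the same number share a culture or a batch. With the replicate number as a block, 4059 genes were called higher and 4995 lower, and the members' calls were the same 2 higher and 5 lower. Among the 10 members SMAD9 rests on the fewest reads, 37 to 48 in the carfilzomib libraries. Among other genes named, IL11, BMP6 and INHBA rest on 0 to 24 reads in the DMSO libraries, and AMH on 10 to 29 in the carfilzomib libraries.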
